A study of Homo sapiens with 12 samples.

Results

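The mucins and secretory airway genes described here were 10 genes: the cell-surface mucins MUC1, MUC4, MUC13, MUC16 and MUC20, the secreted mucin MUC5B, and AGR2, TFF3, SPDEF and OLFM4. They were listed by name, with no threshold on their values, and make up 10 of the 18417 genes measured. Each was read from the probe set that carries its symbol alone, and each of the 10 had 1 such probe set. All samples were Calu-3, an established human airway epithelial line from a lung adenocarcinoma, transfected with an RNA oligonucleotide in a lipid reagent, although the extraction note mentions primary cultures. There were 3 arrays of cells given a mimic of the microRNA miR-138, 3 of cells given a small interfering RNA (siRNA) against SIN3A, the scaffold of a histone deacetylase complex, and 6 of cells given NC1, a scrambled control RNA. The controls were thus transfected too, and the sources used here give neither the dose nor the time after transfection. The labels call the arrays biological replicates without naming separate cultures, and a p-value here is set against the spread among arrays, which may be technical.

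Mucins are large proteins carrying dense chains of O-linked sugars. Gel-forming mucins such as MUC5B are folded in the endoplasmic reticulum, packed into granules and released to form the mucus layer, whereas tethered mucins such as MUC1, MUC4 and MUC16 stay on the apical membrane and cover the cilia and cell surface. AGR2 is a protein disulfide isomerase of the endoplasmic reticulum that helps mucins to fold, TFF3 is a small trefoil peptide released with mucins, SPDEF is an ETS-family transcription factor that drives goblet cell differentiation, and OLFM4 is a secreted olfactomedin glycoprotein. SIN3A works with sequence-specific factors as a corepressor of transcription.

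The mature miR-138-5p is shown because it is the usual strand meant by the name miR-138, although the label does not name the arm. RefSeq places the same 5p sequence at 2 loci on GRCh38.p14, MIR138-1 at chr3:44114234-44114256 and MIR138-2 at chr16:56858527-56858549, both on the plus strand. Bases 2 to 8, the seed that pairs with targets, are in capitals.
hsa-miR-138-5p: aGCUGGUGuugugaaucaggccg

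Promoters (250 bases before to 50 bases after the gene start, RefSeq, GRCh38.p14) are shown for OLFM4, which fell in both treated groups, and for AGR2, whose direction differed with the control arrays used. RefSeq promoters were held for 7 of the 10 genes (9 promoters in all), not for MUC20, MUC5B and TFF3. The OLFM4 promoter lies at chr13:53028563-53028862 on the plus strand and the AGR2 promoter at chr7:16804950-16805249 on the minus strand, each written 5′ to 3′ on the gene's strand.
OLFM4 promoter: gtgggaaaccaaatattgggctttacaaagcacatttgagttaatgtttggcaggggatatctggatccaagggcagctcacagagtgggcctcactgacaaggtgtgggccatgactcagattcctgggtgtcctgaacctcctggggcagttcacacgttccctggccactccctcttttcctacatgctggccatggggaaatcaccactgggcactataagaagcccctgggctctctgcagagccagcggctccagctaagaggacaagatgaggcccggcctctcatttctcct
AGR2 promoter: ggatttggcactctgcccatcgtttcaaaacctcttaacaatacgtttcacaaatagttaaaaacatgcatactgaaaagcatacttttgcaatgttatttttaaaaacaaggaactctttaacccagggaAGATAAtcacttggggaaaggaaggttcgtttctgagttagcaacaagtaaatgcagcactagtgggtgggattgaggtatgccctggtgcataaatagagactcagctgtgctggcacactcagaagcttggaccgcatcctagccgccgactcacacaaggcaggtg
Capitals mark the single match found in either sequence, the GATA-type letters AGATAA, which start 119 bases before the AGR2 start. These letters occur in 10.3% of 35116 promoters of that length. Other letter patterns were searched on both strands in the 7 genes with a promoter. Among those 7, the FOXA-type TGTTTNC (17.99% of promoters) was found in MUC4 alone and TATAAA (11.5%) in MUC1 alone. The ETS-type CCGGAT (7.12%) and the interferon-type ISRE motif (3.57%) were found in none of them. A match is a stretch of letters and not a measured binding site.

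Across the whole table, the arrays correlated with each other at r of 0.967 to 0.995 across genes. SIN3A, the siRNA's target, read 5.93, 6.05 and 6.25 on the mimic arrays, 6.17, 5.88 and 6.03 on the siRNA arrays, and 6.79, 6.71, 6.36, 7.34, 7.16 and 7.11 on NC1 1 to 6 (log2 level), so every siRNA and mimic array was below every control array. Its fall against NC1 was -0.83 on the mimic arrays (SE 0.17, limma adjusted p = 0.0304) and -0.88 on the siRNA arrays (SE 0.17, limma adjusted p = 0.0111). The mimic call was lost without any of 7 of the 12 arrays and the siRNA call without siRNA array 2 or 3. Centring the arrays (limma adjusted p = 0.0512), only the arrays of both groups (0.088) and all probe sets tested (0.108) also lost the mimic call. Against the parts described next, the SIN3A differences were -1.13 with the mimic and -1.18 with the siRNA from NC1 4 to 6, and -0.54 with the mimic and -0.59 with the siRNA from NC1 1 to 3, all called, the last 2 calls lost without mimic 1 and without siRNA 2. CFTR, the chloride channel named in the series title, differed from all NC1 by -0.39 with the mimic (limma adjusted p = 0.244, not called) and by -1.34 with the siRNA (limma adjusted p = 0.000203). The mimic value was called without NC1 3 (0.0245) and after a second quantile normalization (0.0297). Against NC1 4 to 6 the mimic value was -0.57 (0.0188, lost without any of 5 arrays), and against NC1 1 to 3 it was -0.22 (0.355, not called). The siRNA values were -1.51 and -1.16, both called. The 6 controls were not alike: NC1 1 to 3 and NC1 4 to 6 differed in many genes, a split by replicate number that was seen in the values and is not in the labels. The 10 genes are therefore compared with all 6 controls and with each part. In the sample order, NC1 1 to 3 stand directly before the siRNA arrays and NC1 4 to 6 directly before the mimic arrays. Whether each part belongs with the treated arrays that follow it was not tested. NC1 3 and NC1 6 had the highest medians over genes, 5.32 and 5.33, against 5.25 to 5.29 on the other arrays. All 8 epithelial markers measured lay above the median of all gene means (5.29), and so did 3 of 7 basal and squamous, 3 of 9 ciliated, 2 of 8 fibroblast and 1 of 6 leukocyte markers. None of these markers was called against all NC1 arrays.

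Among the 10 genes the mean over 12 arrays was above the median of all gene means for MUC1, MUC20, AGR2 and OLFM4 and below it for the other 6. A low array value does not show that a gene is silent, because no detection calls were used here. The spread over all arrays was wide in some of the genes and narrow in others. MUC13, OLFM4, MUC1, AGR2 and MUC20 had SDs of 0.39 to 0.50 over the 12 arrays, larger than those of 97.6% to 99.2% of genes. MUC4, MUC16, MUC5B, TFF3 and SPDEF had SDs of 0.07 to 0.17. In RNA from whole cultures, fewer cells expressing a gene and less RNA per cell cannot be told apart.

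**Figure D1:**
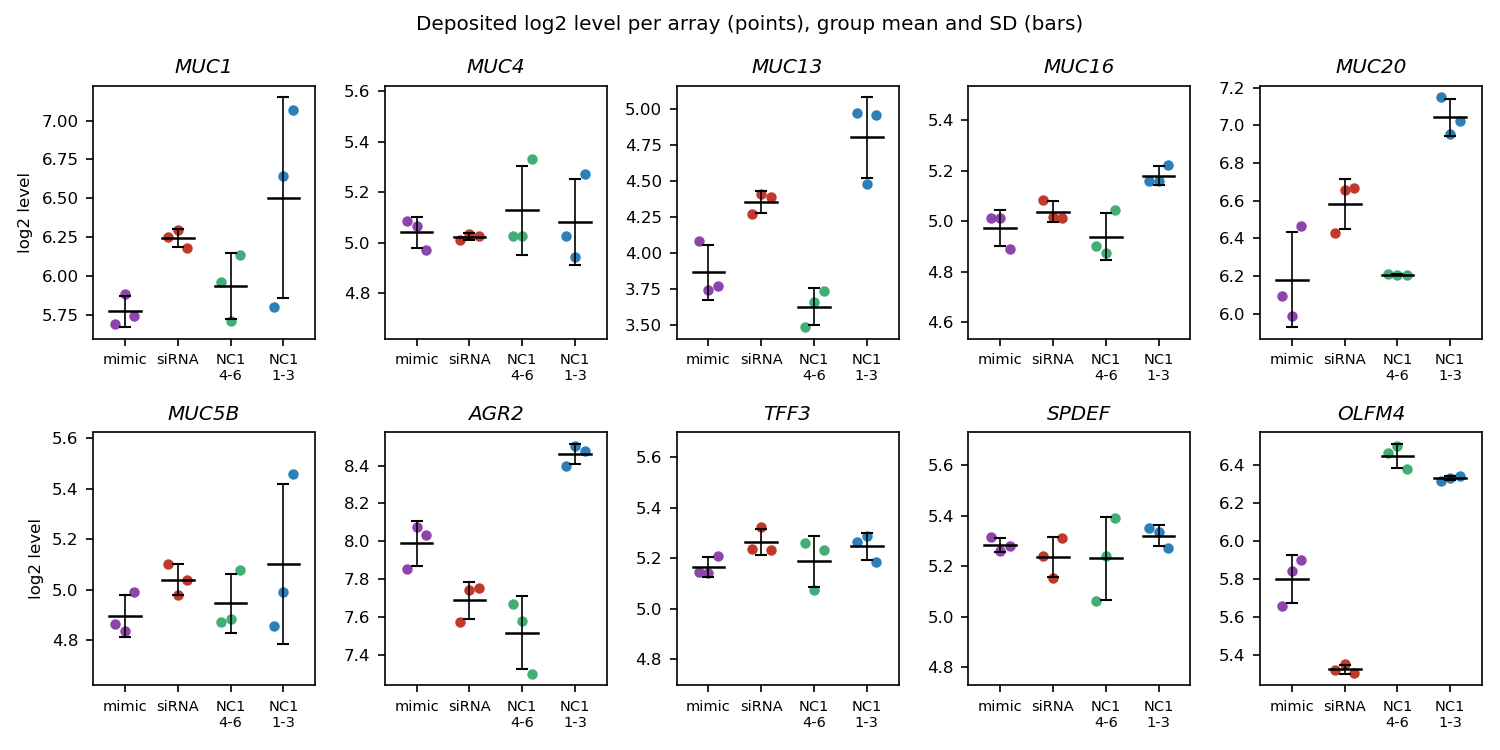
Deposited log2 level (y axis) of each of the 10 genes on each array (points), with the mean and SD (bars) of the mimic arrays, the siRNA arrays, NC1 4 to 6 and NC1 1 to 3 (n = 3 each, x axis). OLFM4 is lowest on the siRNA arrays and below both parts of the control on the mimic arrays, whereas MUC13, MUC20 and AGR2 differ between NC1 4 to 6 and NC1 1 to 3.

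OLFM4 fell with both treatments and was the only one of the 10 genes called against all 6 control arrays. Its level was 5.65, 5.84 and 5.90 on the mimic arrays, 5.32, 5.35 and 5.30 on the siRNA arrays, and 6.32, 6.33, 6.34, 6.46, 6.50 and 6.38 on NC1 1 to 6 (log2). The 3 groups did not overlap at any point: every siRNA array was below every mimic array, and every mimic array was below every control array. The mean was 5.80 ± 0.13 on the mimic arrays (SD, n = 3) and 5.32 ± 0.02 on the siRNA arrays (SD, n = 3), against 6.39 ± 0.08 on NC1 (SD, n = 6).

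Against NC1, OLFM4 fell by 1.06 on the log2 scale with the siRNA (SE 0.08, 95% interval -1.23 to -0.90), which is 2.09-fold lower, at a limma adjusted p of 1.08e-05. With the mimic the difference was -0.59 (SE 0.08, 95% interval -0.75 to -0.43), 1.505-fold lower, at a limma adjusted p of 0.00184. The exact two-sided permutation test over arrays gave p = 0.0119 for each, the smallest value that 3 arrays against 6 can give, and 0.179 after Benjamini-Hochberg adjustment over the 30 such tests. Both calls held without any 1 of the 12 arrays, with a highest limma adjusted p of 0.000368 for the siRNA and 0.0269 for the mimic.

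OLFM4 fell against each part of the control. The log2 difference was -1.12 with the siRNA (SE 0.09, limma adjusted p = 5.82e-07) and -0.65 with the mimic against NC1 4 to 6, and -1.01 with the siRNA and -0.53 with the mimic against NC1 1 to 3. All 4 values passed the test, and each did so without any 1 array. OLFM4 was also the gene with the smallest split among the more variable 5, since NC1 4 to 6 exceeded NC1 1 to 3 by 0.12.

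Between the treatments, OLFM4 stood higher on the mimic arrays than on the siRNA arrays by 0.47 (SE 0.09, 95% interval 0.28 to 0.66), or 1.39-fold, at a limma adjusted p of 0.0173. This call, unlike those against NC1, was lost without some of the arrays. The adjusted p was 0.0601, 0.0628 and 0.0807 without siRNA array 1, 2 or 3, and 0.0939 and 0.0922 without mimic array 2 or 3. The exact permutation p was 0.1, the smallest that 3 arrays against 3 allow.

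**Figure D2:**
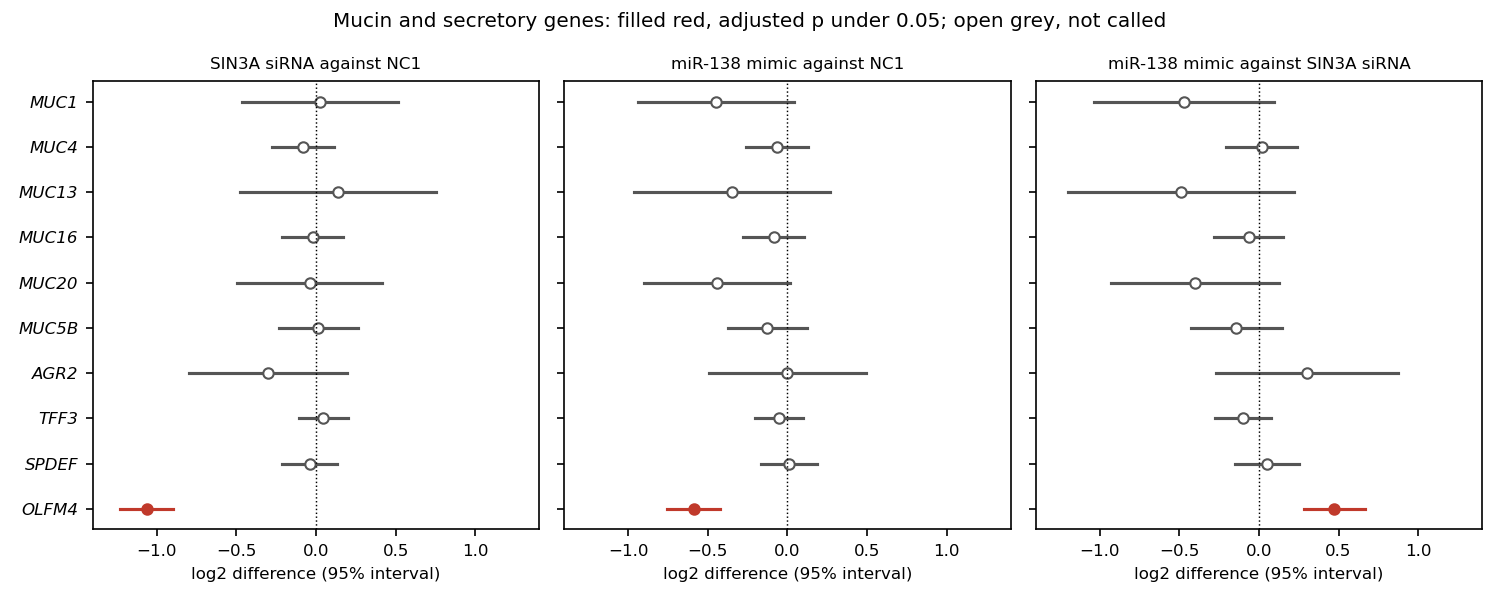
Difference in log2 level (x axis, point) with its 95% interval from limma (line) for each of the 10 genes in 3 comparisons, with calls at adjusted p under 0.05 filled in red. OLFM4 is called in all 3 panels and no other gene in any, and the intervals of MUC1, MUC13, MUC20 and AGR2 are the widest.

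Set beside the whole table, the siRNA gave 0 of 10 genes higher and 1 lower against NC1, where 4.01% of all genes were called (2.35% higher, 1.66% lower). The siRNA arrays all lay above all controls in 0 of the 10 (5.49% of all genes) and all below in 1 (3.53%). The median difference of the 10 genes was -0.03, against -0.01 over all genes. With the mimic, 0 were higher and 1 lower, where 1.04% of all genes were called (0.641% higher, 0.402% lower), and the median difference was -0.11, against -0.01 over all genes. The mimic arrays all lay above all controls in 0 of the 10 (3.89% of all genes) and all below in 1 (2.54%). With the mimic, 9 of the 10 differences were below 0, AGR2 by only 0.0001, and only that of OLFM4 passed the test. The count depended on the controls used, with 6 of 10 below 0 against NC1 4 to 6 and 10 of 10 against NC1 1 to 3. Both comparisons share the NC1 arrays, so they are not independent of each other. Between mimic and siRNA, 1 of 10 was higher and 0 lower, where 1.57% of all genes were called (0.679% higher, 0.89% lower).

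For the other 9 genes the intervals against all NC1 arrays give what these arrays could have missed. SPDEF and TFF3 had the narrowest. SPDEF differed by 0.01 with the mimic (95% interval -0.16 to 0.18) and by -0.04 with the siRNA (-0.21 to 0.13). For TFF3 the values were -0.05 with the mimic (-0.21 to 0.10) and 0.05 with the siRNA (-0.11 to 0.20). MUC5B, the gel-forming mucin of the set, differed by -0.13 with the mimic (-0.38 to 0.12) and by 0.02 with the siRNA (-0.23 to 0.26). MUC4 and MUC16, both tethered mucins, had differences of -0.09 to -0.02 in both comparisons, with intervals that stayed within -0.28 to 0.17. MUC13 had the widest intervals, -0.96 to 0.27 with the mimic and -0.48 to 0.76 with the siRNA, and its control arrays ranged over 3.49 to 4.97.

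The control arrays themselves differed in several of these genes. MUC13, a tethered mucin of mucosal epithelia, read 3.49, 3.66 and 3.74 on NC1 4 to 6, against 4.97, 4.48 and 4.95 on NC1 1 to 3. AGR2 read 7.67, 7.58 and 7.30 on NC1 4 to 6, against 8.40, 8.50 and 8.48 on NC1 1 to 3. MUC20, another tethered mucin, read 6.21, 6.20 and 6.21 on NC1 4 to 6, against 7.15, 6.95 and 7.02 on NC1 1 to 3. In these 3 genes every array of NC1 4 to 6 was below every array of NC1 1 to 3.

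The means of NC1 4 to 6 minus NC1 1 to 3 were -1.17 in MUC13 (2.25-fold), -0.94 in AGR2 (1.93-fold) and -0.84 in MUC20 (1.79-fold). MUC1 differed by -0.57 with overlapping arrays, and MUC16 by -0.24 without overlap. MUC5B, SPDEF, TFF3 and MUC4 differed by -0.16, -0.09, -0.06 and 0.05 and overlapped. The parts did not overlap in 5 of the 10 genes (4 lower in NC1 4 to 6, 1 higher), where 22.4% of all genes did not. A difference of over 0.5 in size was seen in 4 of the 10, against 5.16% of all genes. The split was found in these values, so it was given no test, and what set the parts apart was not tested. The limma p-values against each part depend on that same split. Fitting the parts apart lowers the SE of genes that differ between them. For MUC13 with the siRNA it was 0.29 against all NC1 and 0.13 against either part. The mean level of the 10 genes per array was 5.48 to 5.58 on NC1 4 to 6 and 5.83 to 6.03 on NC1 1 to 3, while the 8 epithelial markers averaged 8.17 to 8.24 on NC1 4 to 6 and 8.03 to 8.21 on NC1 1 to 3.

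The treated arrays lay between the 2 parts for MUC13. Its level was 4.09, 3.74 and 3.77 on the mimic arrays and 4.27, 4.41 and 4.39 on the siRNA arrays. Every siRNA array was thus above NC1 4 to 6 and below NC1 1 to 3, and every mimic array was above NC1 4 to 6 by a small margin. With the siRNA, MUC13 was higher than NC1 4 to 6 by 0.73 (SE 0.13, limma adjusted p = 0.00137). Against NC1 1 to 3 the value was -0.45 (SE 0.13, limma adjusted p = 0.0571, not called, but 0.0113 without NC1 2). With the mimic, MUC13 fell by 0.93 against NC1 1 to 3 (SE 0.13, limma adjusted p = 0.00029), and the value against NC1 4 to 6 was 0.24 (limma adjusted p = 0.533).

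AGR2 also had differences of opposite sign against the 2 parts. It read 7.85, 8.08 and 8.03 on the mimic arrays and 7.57, 7.74 and 7.75 on the siRNA arrays, and every mimic array was above every siRNA array. With the siRNA it fell by 0.77 against NC1 1 to 3 (SE 0.10, limma adjusted p = 0.000541), a call kept without any 1 array, and its value against NC1 4 to 6 was 0.17 (limma adjusted p = 0.384). With the mimic it was higher than NC1 4 to 6 by 0.47 (SE 0.10, limma adjusted p = 0.0161) and lower than NC1 1 to 3 (difference -0.47, SE 0.10, limma adjusted p = 0.00915). The first of these 2 calls was lost without NC1 6, mimic 2 or mimic 3 (adjusted p of 0.0698, 0.0911 and 0.0776) and the second without mimic 1 (0.0557). Against all NC1 arrays the mimic difference was -0.0001 and the siRNA difference -0.30 (SE 0.23, limma adjusted p = 0.599).

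MUC20 read 6.09, 5.98 and 6.46 on the mimic arrays and 6.43, 6.66 and 6.67 on the siRNA arrays. The siRNA arrays stood between the parts of the control, above all of NC1 4 to 6 and below all of NC1 1 to 3. The mimic arrays overlapped NC1 4 to 6 and were below NC1 1 to 3. The fall with the mimic against NC1 1 to 3 was -0.86 (SE 0.12, limma adjusted p = 0.000202), and the value against NC1 4 to 6 was -0.03. With the siRNA MUC20 was higher than NC1 4 to 6 by 0.38 (SE 0.12, limma adjusted p = 0.0432) and lower than NC1 1 to 3 (difference -0.46, SE 0.12, limma adjusted p = 0.0278). Both siRNA calls were fragile. The rise was lost without any of 6 arrays (siRNA 2 or 3, any of NC1 4 to 6, or mimic 1; highest adjusted p 0.154). The fall was lost without NC1 1, NC1 3 or any siRNA array (highest adjusted p 0.12). RefSeq lists a pseudogene, MUC20P1, on the same chromosome as MUC20, and an antisense gene, MUC5B-AS1, beside MUC5B. Whether the probes tell these apart was not tested.

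MUC1, the best known tethered mucin of airway epithelium, had the widest spread of the 10 genes within NC1 1 to 3 (SD 0.64, n = 3). It read 5.69, 5.88 and 5.74 on the mimic arrays, 6.25, 6.29 and 6.18 on the siRNA arrays, 5.96, 5.71 and 6.13 on NC1 4 to 6, and 5.80, 6.64 and 7.07 on NC1 1 to 3. Every mimic array was below every siRNA array, and the controls overlapped both. With the mimic MUC1 fell by 0.73 against NC1 1 to 3 (SE 0.21, limma adjusted p = 0.0428). That call was lost without any of 9 of the 12 arrays, and the value was -0.45 without NC1 3 and -1.08 without NC1 1. With the siRNA the value against NC1 1 to 3 was -0.26 (limma adjusted p = 0.552), -0.61 without NC1 1 (0.0139) and 0.02 without NC1 3. Against NC1 4 to 6 it was 0.31 with the siRNA (limma adjusted p = 0.463) and -0.16 with the mimic.

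**Figure D3:**
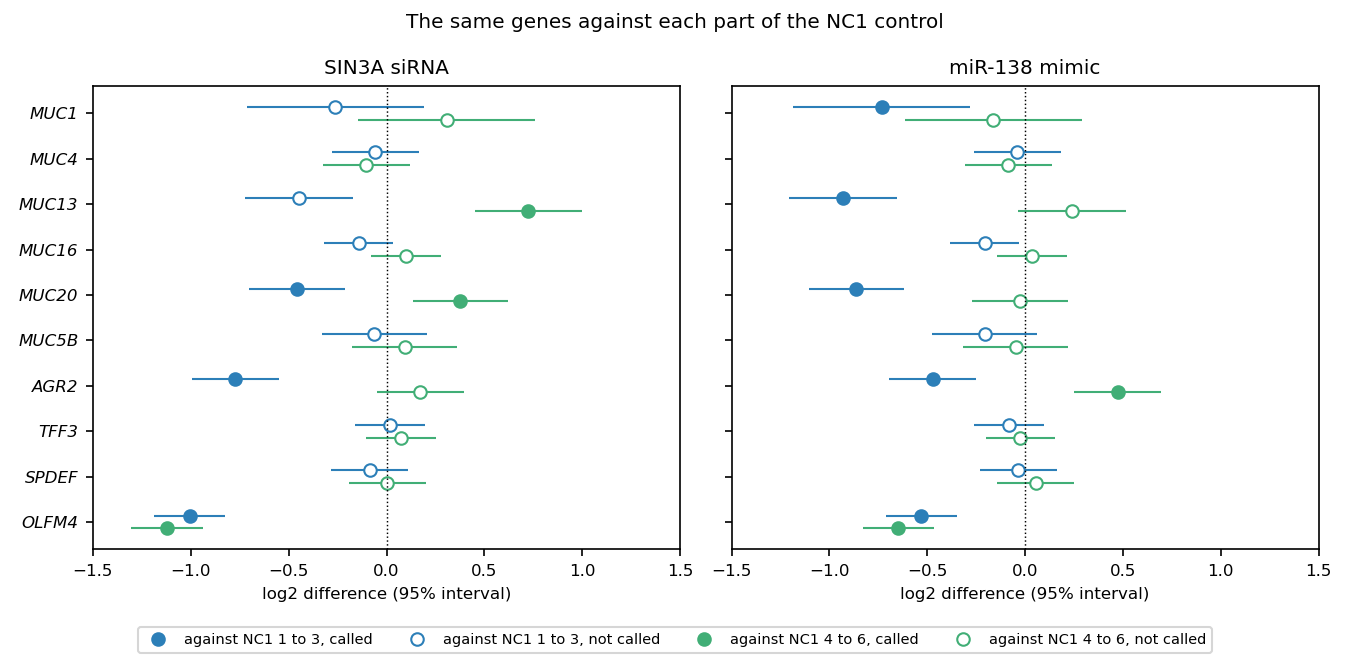
Difference in log2 level (x axis, point) with its 95% interval from limma (line) for the siRNA (left) and the mimic (right) against NC1 4 to 6 (green) and NC1 1 to 3 (blue), with calls at adjusted p under 0.05 filled. OLFM4 falls against both parts in both panels. With the siRNA, AGR2, MUC13 and MUC20 lie on opposite sides of 0, as do MUC1, MUC16, MUC5B and SPDEF.

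Counted over the 10 genes, the siRNA gave 2 higher and 1 lower against NC1 4 to 6, where 11.4% of all genes were called (5.16% higher, 6.28% lower), and 0 higher and 3 lower against NC1 1 to 3, where 5.7% were called (3.66% higher, 2.04% lower). With the mimic, 1 was higher and 1 lower against NC1 4 to 6, where 3.49% of all genes were called (1.59% higher, 1.89% lower), and 0 were higher and 5 lower against NC1 1 to 3, where 8.55% were called (6.01% higher, 2.54% lower). The median difference of the 10 genes was 0.10 with the siRNA and -0.02 with the mimic against NC1 4 to 6, and -0.20 with the siRNA and -0.34 with the mimic against NC1 1 to 3. Over all genes those medians lay between -0.02 and 0.005. Arrays of the siRNA all lay above NC1 4 to 6 in 3 of the 10 genes, MUC1, MUC13 and MUC20 (14% of all genes), and all below in OLFM4 (13.3%), and they lay above NC1 1 to 3 in 0 (11.2%) and below in 5 (9.04%). Arrays of the mimic lay above NC1 4 to 6 in MUC13 and AGR2 (9.72% of all genes) and below in OLFM4 (9.36%), and above NC1 1 to 3 in 0 (12.8%) and below in 5 (11%). OLFM4 alone was called in the same direction against both parts in both treatments.

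Comparing the treatments with each other uses no control array. Whether a difference like that between the parts of the control also lies between the mimic and siRNA arrays was not tested. Besides OLFM4 and AGR2, whose mimic arrays were above all siRNA arrays (13.3% of all genes), MUC1, MUC13 and TFF3 had all mimic arrays below all siRNA arrays (13.1% of all genes). The differences were -0.47 in MUC1 (SE 0.27, limma adjusted p = 0.487), -0.49 in MUC13 (SE 0.33, limma adjusted p = 0.601), -0.10 in TFF3 and 0.30 in AGR2, none of them called. The SE in this fit takes in the spread of the 6 controls. With the 6 treated arrays alone, MUC1 (limma adjusted p = 0.00762) and MUC13 (0.0192) were called lower with the mimic. That fit called 1474 of the 18417 genes, against 289 (1.57%) in the fit of all arrays. The difference of NC1 4 to 6 from NC1 1 to 3 had the same sign in MUC1 (-0.57), MUC13 (-1.17), TFF3 (-0.06) and OLFM4 (0.12). In AGR2 (-0.94) its sign was opposite.

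Other genes of the mucus pathway were read from lists of 9 further mucins, 24 secreted or mucosal proteins, 25 enzymes of O-linked sugar chains, 18 genes of folding and granule release and 21 transcription and Notch-pathway genes of secretory epithelium. Against all NC1 arrays, 3 of the 96 genes on these lists were called with the mimic (3.13%, against 1.04% of all genes) and 3 with the siRNA (3.13%, against 4.01% of all genes). The siRNA gave 0 of 9 mucins, 1 secreted or mucosal gene lower, 1 sugar-chain enzyme higher, 1 granule gene higher and 0 of 21 regulators. The mimic gave 0 of 9 mucins, 0 of 24 secreted or mucosal genes, 2 sugar-chain enzymes higher, 0 of 18 folding and granule genes and 1 regulator lower.

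B3GNT5, a glycosyltransferase best known for starting lacto-series chains on glycolipids, rose with both. It read 7.57, 7.53 and 7.58 on the mimic arrays and 7.82, 7.85 and 7.79 on the siRNA arrays, against 6.78 to 7.35 on NC1 1 to 6. All 6 treated arrays were above all 6 controls. The rise on the mimic arrays was 0.49 (SE 0.11, limma adjusted p = 0.044), lost without any of 10 of the 12 arrays. That call was also lost after a second quantile normalization (0.0657), with centred arrays (0.0624) and with another variance model (0.0541). So it was with only the arrays of both groups (0.115), with all probe sets tested (0.122) and with the replicate block (0.0528). On the siRNA arrays it was 0.75 (SE 0.11, limma adjusted p = 0.00238), kept without any 1 array. B3GNT5 was also called higher against each part, by 0.59 with the mimic and 0.85 with the siRNA from NC1 4 to 6, and by 0.38 with the mimic and 0.64 with the siRNA from NC1 1 to 3.

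GALNT5, which belongs to the family that places the first sugar of O-linked chains, rose with the mimic. It read 8.07, 8.09 and 7.85 on the mimic arrays, against 7.59, 7.53, 7.31, 7.07, 7.34 and 7.10 on NC1 1 to 6, without overlap. The rise was 0.68 (SE 0.11, limma adjusted p = 0.00977), lost without mimic 1 or 2 (highest adjusted p 0.0835). The siRNA arrays, at 7.69 to 7.72, were also above all controls, and their difference was not called. Against the parts, the mimic rise was 0.83 from NC1 4 to 6 and 0.52 from NC1 1 to 3, both called, and the siRNA value was 0.53 from NC1 4 to 6 (called) and 0.23 from NC1 1 to 3 (not called).

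NOTCH2, a receptor whose signal favours secretory over ciliated fate in airway epithelium, fell with the mimic. It read 5.26, 5.42 and 5.43 on the mimic arrays and 5.69, 5.81 and 5.85 on the siRNA arrays, against 5.79 to 5.87 on NC1 1 to 6. Every mimic array was below every other array. The fall was -0.45 against NC1 (SE 0.07, limma adjusted p = 0.00637, 0.0698 without mimic 1) and -0.41 against the siRNA (SE 0.08, limma adjusted p = 0.0246, lost without siRNA 2 or 3 or any mimic array). Against the parts it was -0.47 from NC1 4 to 6 and -0.44 from NC1 1 to 3, both called. VAMP8, a SNARE protein of granule release, was higher with the siRNA by 0.50 (SE 0.07, limma adjusted p = 0.00313), and TSPAN8, a tetraspanin of the cell surface, was lower with it (difference -0.30, SE 0.08, limma adjusted p = 0.0381). The TSPAN8 call did not survive the omission of any of 10 arrays. It was also lost with centred arrays (limma adjusted p = 0.0629), with only the arrays of both groups (0.0782), with the replicate block (0.0679) and with all probe sets tested (0.0641). Against NC1 4 to 6 and NC1 1 to 3, the siRNA values were 0.50 and 0.49 for VAMP8, both called, and -0.25 (not called) and -0.35 (called) for TSPAN8.

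**Figure D4:**
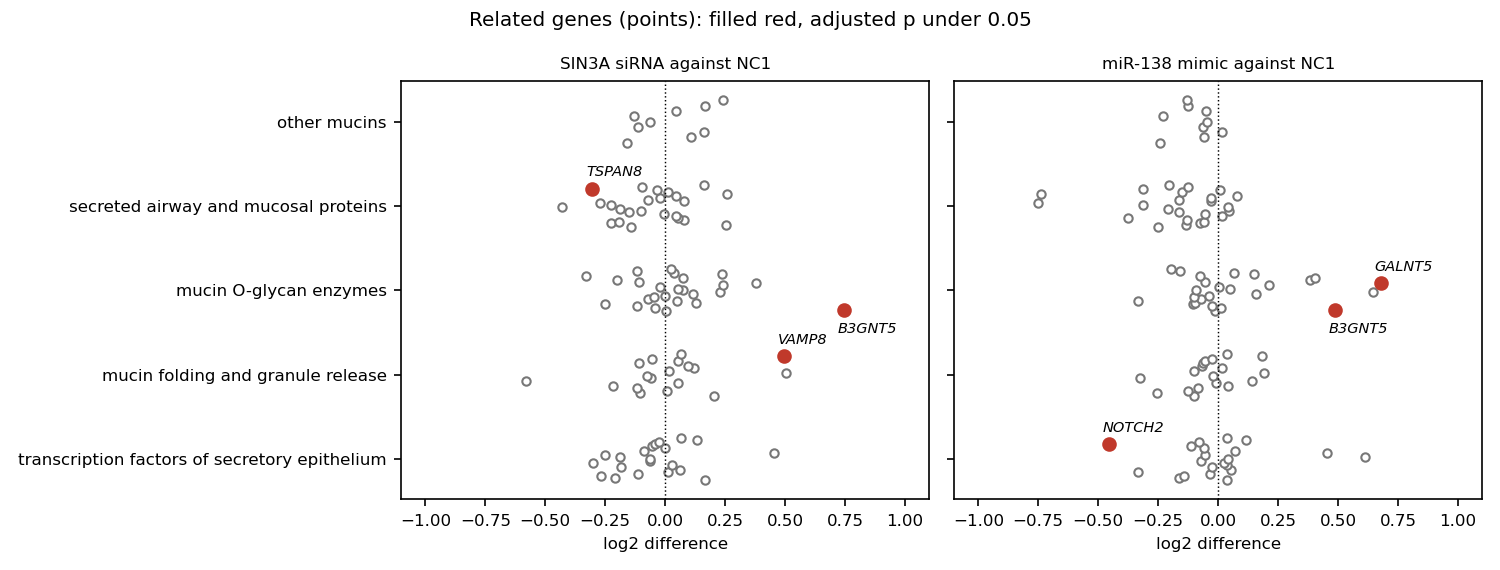
Difference in log2 level from all NC1 arrays (x axis) for each gene of 5 lists of the mucus pathway (rows), for the siRNA (left) and the mimic (right), with calls at adjusted p under 0.05 filled in red and named. Most genes lie near 0, and B3GNT5 is called in both panels.

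Read against the parts of the control, the secreted and mucosal genes included several that differed between NC1 4 to 6 and NC1 1 to 3. SLPI, a secreted protease inhibitor, read 6.48, 6.55 and 6.71 on the mimic arrays, 7.64, 7.52 and 7.56 on the siRNA arrays, 6.51, 6.44 and 6.57 on NC1 4 to 6, and 8.29, 8.16 and 7.93 on NC1 1 to 3. The siRNA arrays were above all of NC1 4 to 6, by 1.07 (limma adjusted p = 4.52e-06), and below all of NC1 1 to 3 (difference -0.55, limma adjusted p = 0.00416). The mimic arrays overlapped NC1 4 to 6 and were below NC1 1 to 3 (difference -1.55, limma adjusted p = 1.45e-07).

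PIGR, the receptor that carries polymeric immunoglobulin across the epithelium, read 4.90, 5.04 and 4.96 on the mimic arrays, 5.35, 5.51 and 5.47 on the siRNA arrays, 5.11, 5.16 and 5.12 on NC1 4 to 6, and 6.08, 6.46 and 6.36 on NC1 1 to 3. Both treatments were below NC1 1 to 3, with differences of -1.34 for the mimic and -0.86 for the siRNA that passed the test. Neither was called against NC1 4 to 6. LCN2, a siderophore-binding protein of mucosal defence, was below NC1 1 to 3 as well, with differences of -0.46 for the mimic and -0.43 for the siRNA, both called, and was called against NC1 4 to 6 with neither. Of the 24 secreted or mucosal genes, 7 were lower and 0 higher with the mimic against NC1 1 to 3, where 2.54% of all genes were lower and 6.01% higher, and 0 were called with it against NC1 4 to 6, where 3.49% of all genes were. With the siRNA the counts were 5 lower and 0 higher against NC1 1 to 3 (2.04% lower and 3.66% higher among all genes), and 0 lower and 1 higher against NC1 4 to 6 (6.28% lower and 5.16% higher among all genes). Between the parts themselves, 7 of the 24 had every array of NC1 4 to 6 below every array of NC1 1 to 3, and 0 the reverse, against 10.4% below and 12.0% above among all genes.

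**Figure D5:**
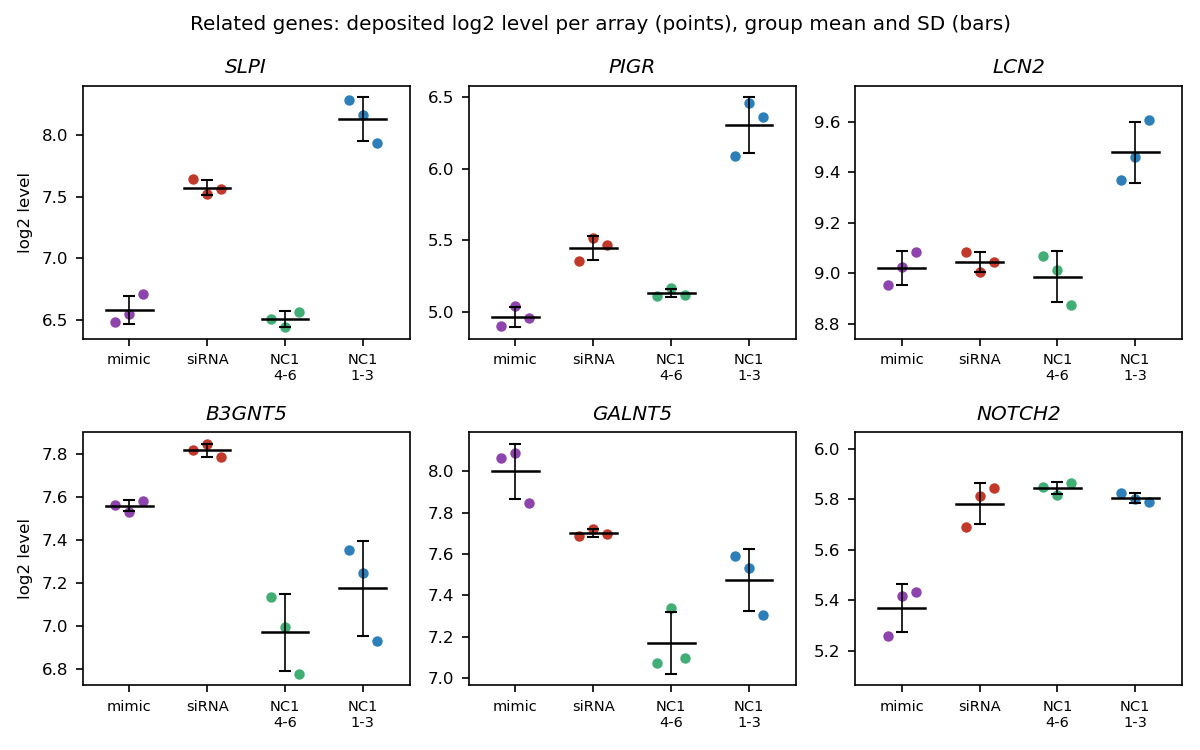
Deposited log2 level (y axis) of 6 related genes on each array (points), with the mean and SD (bars) of the mimic arrays, the siRNA arrays, NC1 4 to 6 and NC1 1 to 3 (n = 3 each, x axis). SLPI, PIGR and LCN2 are highest on NC1 1 to 3, B3GNT5 is higher on treated than on control arrays, GALNT5 is highest on the mimic arrays, and NOTCH2 is lowest on them.

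Among the further mucins, MUC12, a tethered mucin, was lower than NC1 1 to 3, with differences of -0.54 for the mimic (limma adjusted p = 0.00686) and -0.45 for the siRNA (0.0274, lost without NC1 2 or 3 or siRNA 1 or 3). MUC12 has several probe sets, and with their median neither was called (0.0783 and 0.0908). Against NC1 4 to 6 the values were 0.05 with the mimic and 0.13 with the siRNA, neither called. MUC7, a small salivary mucin, was higher with the siRNA than NC1 4 to 6 by 0.43 (limma adjusted p = 0.027), lost without any of 5 arrays, and its 3 other values against the parts were not called. GALNT1, another enzyme that starts O-linked chains, exceeded NC1 1 to 3 by 1.09 with the mimic (SE 0.12, limma adjusted p = 4.73e-05) and 0.67 with the siRNA (SE 0.12, limma adjusted p = 0.00453), and its values against NC1 4 to 6 were 0.20 with the mimic and -0.21 with the siRNA, neither called. KLF4, a zinc-finger factor of differentiated epithelium, exceeded NC1 4 to 6 by 0.68 with the mimic (limma adjusted p = 0.00245) and 0.67 with the siRNA (0.000965), and its value against NC1 1 to 3 was 0.23 with each, not called. JAG1, a Notch ligand, exceeded NC1 1 to 3 by 0.96 with the mimic (limma adjusted p = 6.6e-05) and was below NC1 4 to 6 with the siRNA (difference -0.54, 0.0046), while the mimic against NC1 4 to 6 (0.27) and the siRNA against NC1 1 to 3 (0.16) were not called. None of these 5 genes was called against all NC1 arrays. Of the 25 sugar-chain enzymes, 4 were higher and 2 lower with the mimic against NC1 1 to 3 (6.01% and 2.54% of all genes). Against NC1 4 to 6, 3 were higher and 0 lower with it (1.59% and 1.89%). With the siRNA, 2 were higher and 0 lower against NC1 1 to 3 (3.66% and 2.04%), and 2 and 1 against NC1 4 to 6 (5.16% and 6.28%). Of the 21 regulators, the siRNA gave 2 higher and 3 lower against NC1 4 to 6. Among the basal and squamous markers, the keratin KRT13 was higher than NC1 1 to 3 by 0.40 with the mimic and 0.50 with the siRNA, both called (-0.08 and 0.03 against NC1 4 to 6, neither called), and the cornified-envelope gene SPRR3 was lower with the mimic (difference -0.43, lost without NC1 1, mimic 1 or mimic 2; 0.06 against NC1 4 to 6, not called). Their part in the other results was not tested.

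The genes whose profiles over the 12 arrays were most like those of MUC13, OLFM4 and MUC1 were found by the root mean square difference of log2 levels, each centred on its NC1 mean. Nearest to MUC13 were CYP1A1 (0.14), SOD2 (0.20) and GLRX (0.22), against an SD of 0.50 for MUC13 itself. For OLFM4 they were VEPH1 (0.13), EIF4EBP2 (0.20) and DTL (0.20), against an SD of 0.47. For MUC1 they were MYRFL (0.21), ARSI (0.21) and SNORD33 (0.22), against an SD of 0.42. CYP1A1 averaged 5.03 on the mimic arrays, 5.63 on the siRNA arrays, 4.93 on NC1 4 to 6 and 5.98 on NC1 1 to 3, the same order as MUC13. VEPH1 averaged 4.99 on the mimic arrays, 4.60 on the siRNA arrays, 5.70 on NC1 4 to 6 and 5.52 on NC1 1 to 3, the same order as OLFM4. CYP1A1 and VEPH1 were picked for likeness over these same arrays, so the shared order comes with the choice and is no further result. These are descriptions over 12 arrays that share their groups, with no test.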

How the data were processed

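RNA of Calu-3 cells was measured on 12 arrays (3 miR-138 mimic, 3 SIN3A siRNA, 6 NC1). The deposited values are log2 levels, 1 per probe set and array, between 1.43 and 13.2; RMA and Partek 6.3 were used by the authors, per the submitters' processing notes, with no step named for either. They were used as deposited, so background and normalization stand as the authors left them, and no probe set was removed for low signal. Arrays give no counts, and their number limits the precision (median SE against NC1 0.10 in log2).

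Of 33297 probe sets, 19460 carried 1 symbol, 1754 several and 12083 none. A gene was read from its single-symbol probe set with the highest mean over 12 arrays, which gave 18417 genes (769 had several to choose among). All arrays were fitted in limma 3.58.1 (R 4.3.3) with 3 group means (9 residual degrees of freedom), and with 4, NC1 1 to 3 and NC1 4 to 6 apart (8 residual degrees of freedom). In the 4-group fit NC1 4 to 6 and NC1 1 to 3 each serve as a control, and arrays outside a contrast bear on it only through the shared spread. Genes were called at a Benjamini-Hochberg adjusted p under 0.05 over all 18417 genes. Exact permutation tests over arrays (84 splits for 3 against 6, 20 for 3 against 3) were added for the 10 genes. The fit was tested on simulated data in which all controls were drawn around a single mean per gene. That check cannot show how the fit behaves when NC1 1 to 3 and NC1 4 to 6 differ, as they do here.

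The genes, lists and tests were chosen with earlier results of these data known. The genes named were all 10, SIN3A and CFTR as checks, and the 3 nearest profiles of the 3 genes with the largest SD. From each list and contrast, up to 4 called genes of the smallest adjusted p were eligible, and only some are described. Left out were PDIA4, XBP1, SNAP23, CEACAM6, AGR3, GALNT7, CHST4, GCNT3, FOXA1, ELF3 and GRHL2. PDIA4 differed by -0.90 from NC1 4 to 6 with the siRNA (limma adjusted p = 1.83e-05) and by 0.46 from NC1 1 to 3 with the mimic (0.00798). GALNT7 differed by -0.47 from NC1 4 to 6 with the siRNA (0.00812, lost without NC1 5) and by 0.66 from NC1 1 to 3 with the mimic (0.00115). CHST4 was lower with the mimic than NC1 1 to 3 (-0.65, 0.00786). ELF3 (-0.38, 0.014) and GRHL2 (-0.39, 0.0235) were lower with the siRNA than NC1 4 to 6, each call lost without any of 3 arrays. Alternatives covered the probe set rule, another quantile normalization, centring, dim genes, the variance model, the table tested, fewer arrays and the replicate number as a block.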

Additional observations from a re-analysis of the deposited data

Results flagged for a closer look

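MUC5B read 5.46 on NC1 3, far from the other controls: the gap to the nearest of them, NC1 6 at 5.08, was 0.631 of the range of the 6 NC1 arrays, just past Dixon's 95% limit for 6 values. Chance flags about 1 in 20 groups, and no other gene of the 10 was flagged among the controls. NC1 3 and NC1 6 also had the highest medians over all genes, 5.32 and 5.33. The MUC5B difference from NC1 was 0.02 with the siRNA and -0.13 with the mimic with this array included, and 0.10 with the siRNA and -0.04 with the mimic without it, called in neither case.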

How the results depend on the processing

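The OLFM4 calls against NC1, and against each part of it, kept direction and call in every alternative run. Over the 10 genes and 7 comparisons, 1302 of 1348 alternative values stayed on the same side of the threshold, 37 lost a call and 9 gained one. The sign changed in 52 of the 1348, all of them differences that were not called, the largest of these -0.26 (MUC1, siRNA against NC1 1 to 3, 0.02 without NC1 3), and in 0 called differences. The replicate numbers gave no clear pairing among the mimic, siRNA and NC1 1 to 3 arrays (same-number deviations correlated at -0.10 to 0.03). Mimic and siRNA arrays did match best at the same number, at r of 0.006 to 0.03. Pairing with NC1 4 to 6 was not checked. A replicate block over the arrays numbered 1 to 3 leaves out NC1 4 to 6. With it, the genes called were 2 (AGR2, OLFM4) with the siRNA and 5 (AGR2, MUC1, MUC13, MUC20, OLFM4) with the mimic. Without a block, the fit against NC1 1 to 3 called 3 with the siRNA (AGR2, MUC20, OLFM4) and the same 5 with the mimic. Against all 6 NC1 arrays it was 1 each, so the block and the change of controls are not to be confused. For the mimic against the siRNA the count was 3 (MUC1, MUC13, OLFM4) with the 6 treated arrays alone, against 1 with all arrays, and 0 to 1 with any 1 array left out. Leaving out 1 array gave 3 to 5 for the mimic against NC1 1 to 3 (5 with all) and 1 to 2 for the mimic against NC1 4 to 6 (2 with all). Of all 18417 genes, 930 to 2105 and 363 to 836 were called in those runs (1575 and 642 with all). Without NC1 3 and NC1 6 together, chosen after seeing the data, the count for the mimic against NC1 4 to 6 was 1 (AGR2 0.36, limma adjusted p = 0.0501, not called). Over all genes, the number called moved with the arrays kept: 165 to 1033 with 1 array left out for the siRNA against NC1 (739 with all), 39 to 264 for the mimic against NC1 (192), and 58 to 568 for the mimic against the siRNA (289). With only the arrays of both groups these were 357, 92 and 1474, with all probe sets tested 476, 95 and 182, with the block 708, 1281 and 830, and without NC1 3 and NC1 6 the third was 635. The first 2 block counts use NC1 1 to 3 alone, against which 1050 genes were called with the siRNA and 1575 with the mimic without a block. Among SIN3A, CFTR and the called genes of the other lists, markers included, 117 of 1217 alternative values lost a call. A call was gained in 5, all of them CFTR with the mimic. With 3 arrays a group, differences within the intervals given could not be seen, and without detection calls a low level is not a measured absence.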
